A study of Mus musculus with 6 samples.

Results

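Myelin genes encode the structural proteins and the lipid enzyme with which mature oligodendrocytes build and hold the sheath around axons. Mbp, Mog, Mag, Mobp, Cnp, Cldn11, Mal, Ugt8a and Opalin were taken by name, as every probe set whose platform annotation gave that single symbol, which found all 9 genes in 25 of the 34945 probe sets with 1 symbol (18193 genes). The 6 arrays measured total RNA from brain of 2 month old mice labelled as strain C57/Bl6, with 2 arrays per genotype. Pofut1 knockout brains carried the Nestin cre transgene, which drives Cre recombinase in neural progenitors and so in the neurons, astrocytes and oligodendrocytes that descend from them, together with floxed Pofut1 on both copies. NestinCre control brains carried the same transgene with wild type Pofut1, and Flox control brains carried both floxed copies without Cre. Cells that do not descend from Nestin-expressing progenitors, such as microglia, keep Pofut1 in this model. Values are log2 of the deposited array intensity throughout, and a difference is the first named group minus the second on that scale.

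Pofut1 places fucose on the EGF-like repeats of Notch receptors, a step that Notch signalling needs. In the oligodendrocyte lineage, Notch signalling is known to hold precursors back from maturing, and myelin genes are switched on together late in that maturation by the transcription factors Sox10 and Myrf. Their transcripts are therefore used as a readout of mature oligodendrocytes. In RNA from brain tissue, fewer oligodendrocytes and less RNA per oligodendrocyte cannot be told apart.

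Array medians lay between 7.32 and 7.36, and the 2 arrays of a genotype had a correlation of 0.993 to 0.995 across all probe sets. Snap25, a neuronal synapse gene that marks brain tissue, lay between 13.03 and 13.13 on all 6 arrays. The brightest Pofut1 probe set read 9.25 and 9.44 in knockout, against 9.84 and 9.77 in NestinCre control and 9.95 and 9.81 in Flox control, and the sources used here do not say whether its target lies in the exons removed by Cre. By Xist and the Y-linked Eif2s3y, knockout replicate 1 and NestinCre control replicate 2 were male samples and the remaining 4 female.

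Over the myelin genes as a group, the knockout brains differed little from the controls. The brightest probe set of each gene by its mean over all arrays, called its lead probe set, was below the controls in knockout for 9 of 9 genes, but by less than 0.2 for 7 of them and by less than 0.1 for 6. The median difference was -0.04, beside -0.02 over all 18193 genes, of which 59.3% were also below 0. None of the 25 myelin probe sets passed in limma's test after Benjamini-Hochberg adjustment over all 45037 probe sets (threshold 0.05), where 0.0155% of all probe sets passed. The smallest adjusted p was 0.395. At an unadjusted p under 0.05, 3 of the 25 were lower and 0 higher in knockout, beside 5.08% and 6.04% of all probe sets. The lead probe set of Opalin differed by more than that of any other member, followed by Mog and Mag.

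**Figure D1:**
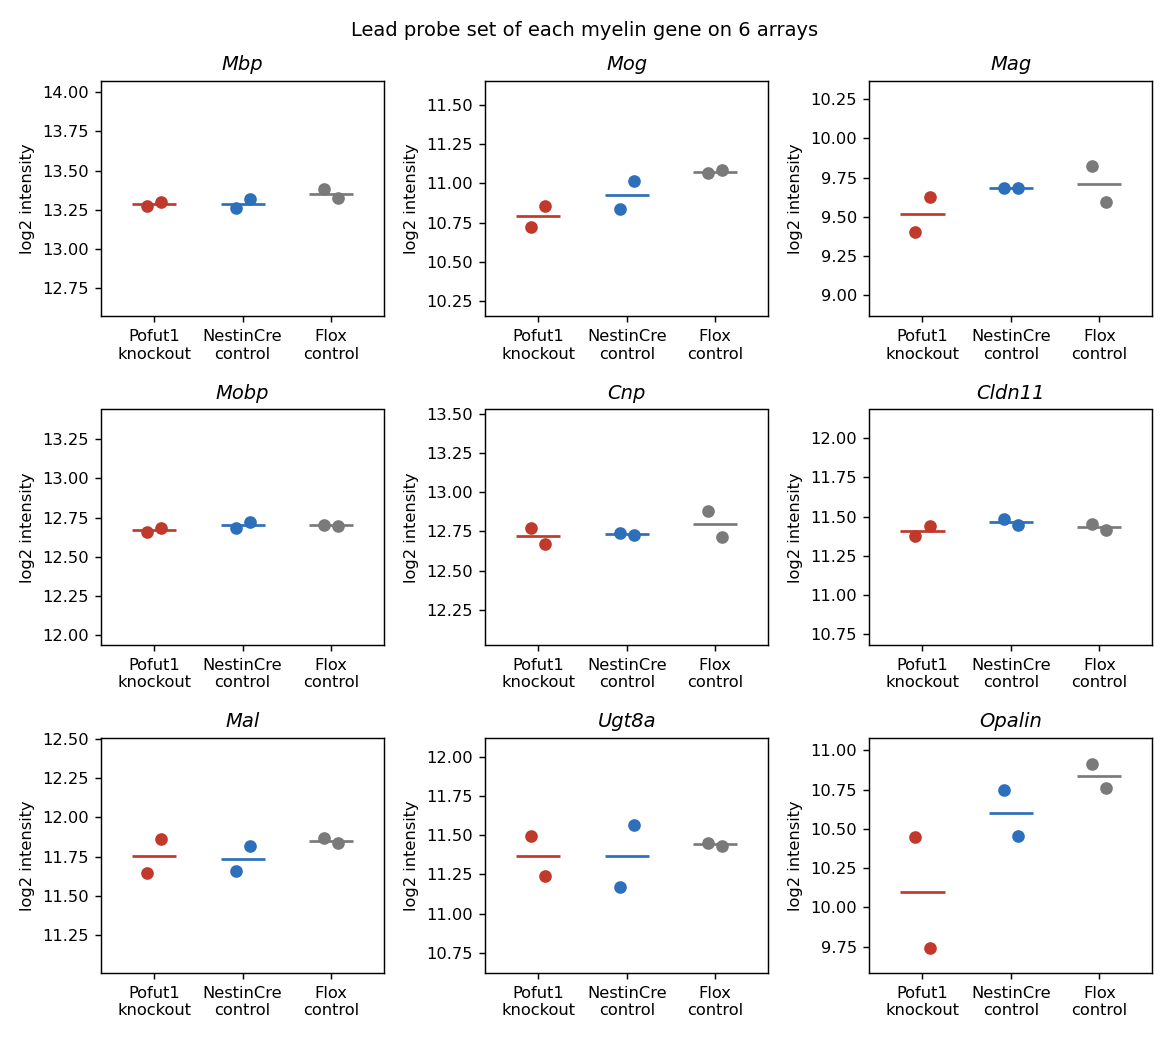
Log2 intensity of the lead probe set of each myelin gene, 1 point per array and a bar at each group's mean of 2 arrays. Every panel spans the same height on the log2 scale. Opalin is the gene with the widest spread over arrays, at 1.17, and Mobp the one with the narrowest, at 0.07.

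Mbp encodes myelin basic protein, which binds the cytoplasmic faces of the membrane together in compact myelin. Its lead probe set (1436201_x_at) read 13.28 and 13.30 in knockout, against 13.26 and 13.32 in NestinCre control and 13.38 and 13.32 in Flox control. The knockout arrays lay inside the range of the NestinCre control arrays. They also lay just below the Flox control arrays, and 30.3% of the lead probe sets of all genes were lower than Flox control without overlap. Against both controls the difference was -0.03 (SE 0.05), with a 95% interval of -0.16 to 0.09. As a share of the controls, that interval ran from 89.6% to 106.7%. Of the 8 Mbp probe sets, 7 were below 0 in this comparison, the lowest at -0.11 (SE 0.08). That one was the dimmest Mbp probe set, below the median of all probe sets on every array, and its interval ran from -0.31 to 0.09. Probe sets marked x_at or s_at can bind transcripts of other genes.

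Mobp encodes a small basic protein of compact myelin. Its lead probe set (1433785_at) read 12.66 and 12.68 in knockout, against 12.68 and 12.72 in NestinCre control and 12.70 and 12.70 in Flox control. These values spanned 0.07 over all arrays, and the higher knockout array overlapped the lower NestinCre control array. The difference from both controls was -0.03 (SE 0.05), with an interval of -0.15 to 0.08. The other 4 Mobp probe sets did not share a direction, with differences from -0.13 (SE 0.08) to 0.10 (SE 0.15). For the compact myelin proteins Mbp and Mobp, the intervals of the lead probe sets leave out a change of 1.2-fold in either direction.

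Cnp encodes a phosphodiesterase that keeps open the cytoplasmic channels of the sheath. On its lead probe set (1437341_x_at), intensities were 12.77 and 12.67 in knockout, 12.74 and 12.73 in NestinCre control, and 12.88 and 12.72 in Flox control. All groups overlapped, and Flox control replicate 1 stood highest. The difference from both controls was -0.05 (SE 0.07, interval -0.22 to 0.13), and the other Cnp probe sets gave -0.05 (SE 0.04) and -0.05 (SE 0.12). All 3 Cnp probe sets thus gave differences of like size.

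Mag encodes a sialic acid-binding adhesion protein on the membrane that faces the axon. Its probe set (1460219_at), the only one for the gene, read 9.41 and 9.63 in knockout, against 9.68 and 9.69 in NestinCre control and 9.82 and 9.59 in Flox control. Both knockout arrays lay below both NestinCre control arrays, as did 16.2% of the lead probe sets of all genes, and knockout replicate 2 lay above Flox control replicate 2. The difference from both controls was -0.18 (SE 0.10) with an interval of -0.43 to 0.07. As a share of the controls, that interval ran from 74.1% to 105.3%.

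Cldn11 encodes the claudin of the tight junctions between myelin layers. Intensities of its only probe set (1416003_at) were 11.38 and 11.44 in knockout, 11.48 and 11.44 in NestinCre control, and 11.45 and 11.41 in Flox control. All 6 values lay within a range of 0.11. Both knockout arrays were below both NestinCre control arrays, as were 16.2% of the lead probe sets of all genes. The difference between these groups was less than 0.1 on average, and the knockout arrays overlapped the Flox control arrays. The difference from both controls was -0.04 (SE 0.05, interval -0.17 to 0.09), which leaves out a change of 1.2-fold. Cldn11 is also made in other tissues of the body, but in brain it is largely a gene of oligodendrocytes.

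Mal encodes a proteolipid that sorts membrane rafts to the sheath. Its lead probe set (1417275_at) read 11.64 and 11.86 in knockout, against 11.66 and 11.82 in NestinCre control and 11.87 and 11.84 in Flox control. The knockout replicates lay about as far apart as the whole range of the controls. The difference was -0.04 (SE 0.09, interval -0.27 to 0.18), and the second Mal probe set gave -0.03 (SE 0.11).

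Ugt8a encodes the galactosyltransferase that makes galactosylceramide, the characteristic glycolipid of myelin. Its lead probe set (1419063_at) read 11.49 and 11.24 in knockout, against 11.17 and 11.57 in NestinCre control and 11.45 and 11.43 in Flox control. The lowest and the highest of the 6 values both came from NestinCre control. The difference was -0.04 (SE 0.14), and its interval of -0.39 to 0.31 was wide enough to hold a change of 1.2-fold either way. The second Ugt8a probe set was dim, below the median of all probe sets on all arrays, and gave 0.11 (SE 0.16).

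Mog encodes an immunoglobulin-family protein on the outermost surface of the sheath. Its only probe set (1448768_at) read 10.72 and 10.86 in knockout, against 10.84 and 11.01 in NestinCre control and 11.07 and 11.08 in Flox control. Both knockout arrays lay below both Flox control arrays, as did 30.3% of the lead probe sets of all genes, while knockout replicate 2 lay above NestinCre control replicate 1. The difference from both controls was -0.21 (SE 0.07), an intensity of 86.4% of the controls with an interval of 75.6% to 98.7%. The unadjusted p was 0.0372 and the limma adjusted p 0.414, which did not pass.

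Opalin encodes a sialylated transmembrane glycoprotein of central nervous system oligodendrocytes. Its lead probe set (1435854_at) read 10.45 and 9.74 in knockout, against 10.75 and 10.46 in NestinCre control and 10.92 and 10.76 in Flox control. Both knockout arrays lay below all 4 controls, as did 10.9% of the lead probe sets of all genes, but for knockout replicate 1 the gap to the nearest control array was small. On the linear scale the mean intensity was 1128 ± 383 (SD, n = 2) in knockout, 1562 ± 221 (SD, n = 2) in NestinCre control and 1834 ± 139 (SD, n = 2) in Flox control. The log2 difference from both controls was -0.62 (SE 0.22), an intensity of 64.9% of the controls with an interval of 43.9% to 96.0%. The unadjusted p was 0.0364 and the limma adjusted p 0.411, which did not pass.

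The second Opalin probe set (1447487_at) was dim and below the median of all probe sets on every array. It read 5.93 and 6.08 in knockout, against 6.13 and 6.17 in NestinCre control and 6.22 and 6.25 in Flox control. Here too both knockout arrays lay below all controls, as did 9.19% of all probe sets, with a difference of -0.18 (SE 0.06, limma adjusted p = 0.395). The lower knockout array was replicate 1 on this probe set and replicate 2 on the lead probe set, so the 2 probe sets ordered the knockout brains differently. The size of the lead probe set's difference rested on knockout replicate 2. Without that array it was -0.27 (SE 0.14), and without knockout replicate 1 it was -0.98 (SE 0.14). In these fits the lone knockout array is assumed to vary like the other groups.

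Sex moved with the same arrays. On the lead probe set of Opalin, the male knockout array read 10.45 against 10.46 for the male control array, a difference of -0.01. The female knockout array read 9.74 against a mean of 10.81 for the 3 female control arrays (10.75 to 10.92), a difference of -1.06. With 1 knockout array of each sex, sex and the individual brain cannot be told apart here. With sex as a covariate, Opalin differed from both controls by -0.68 (SE 0.24, limma adjusted p = 0.478). For Mog the male pair differed by -0.29, and the female knockout array by -0.14 from the mean of the female controls. That female knockout array, at 10.86, lay within the range of the 3 female control arrays (10.84 to 11.08). Over the 9 genes, 8 were lower in knockout among males and 8 among females, the exceptions being Cnp in males and Mal in females. Some of these differences were close to 0, such as -0.01 for Mobp and for Cldn11 in females. The share of all genes lower within each sex was not taken, and with all arrays 59.3% of all genes were below 0.

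**Figure D2:**
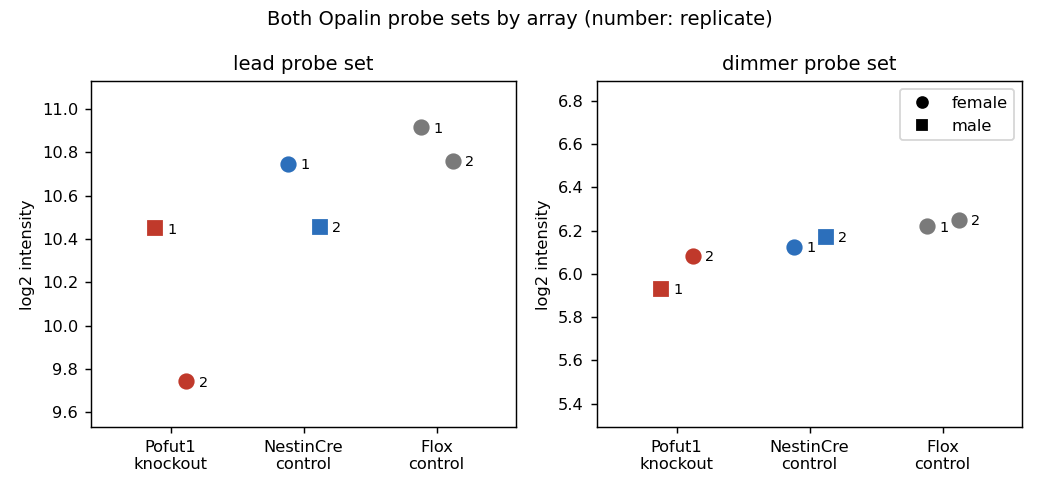
Log2 intensity of the lead (left) and the dimmer (right) Opalin probe set on each array, by genotype, with circles for females and squares for males and the replicate number beside each point. On the lead probe set knockout replicate 2 stands alone at 9.74, while knockout replicate 1, at 10.45, lies beside NestinCre control replicate 2, at 10.46.

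The promoters of the members that differed by an unadjusted p under 0.05, Opalin and Mog, are shown with that of Mobp, the member with the most matches to a Sox motif. Each run is the 250 bases before the RefSeq start of the gene on GRCm38.p6, in the direction of transcription. Capitals mark matches, on either strand, to ACAAAG, a core bound by Sox factors such as Sox10, or to TGGGAA, a core bound by the Notch partner Rbpj.
Opalin promoter, chr19:41077114-41077363, minus strand: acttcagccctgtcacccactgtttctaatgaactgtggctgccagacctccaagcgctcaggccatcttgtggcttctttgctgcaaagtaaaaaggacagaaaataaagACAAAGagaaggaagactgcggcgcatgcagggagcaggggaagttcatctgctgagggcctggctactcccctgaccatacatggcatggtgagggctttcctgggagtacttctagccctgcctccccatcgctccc
Mog promoter, chr17:37023399-37023648, minus strand: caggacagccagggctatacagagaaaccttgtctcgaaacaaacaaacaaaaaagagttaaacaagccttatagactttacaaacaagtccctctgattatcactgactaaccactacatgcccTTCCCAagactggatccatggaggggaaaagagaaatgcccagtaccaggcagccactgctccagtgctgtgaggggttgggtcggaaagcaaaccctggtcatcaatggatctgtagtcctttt
Mobp promoter, chr9:120149492-120149741, plus strand: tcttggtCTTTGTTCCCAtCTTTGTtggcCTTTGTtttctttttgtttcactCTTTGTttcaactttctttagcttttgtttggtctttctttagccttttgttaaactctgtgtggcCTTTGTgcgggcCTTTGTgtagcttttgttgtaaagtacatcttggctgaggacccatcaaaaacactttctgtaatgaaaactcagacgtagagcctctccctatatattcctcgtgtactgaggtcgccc

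The Opalin window held 1 match to the Sox core and 0 to the Rbpj core, and the Mog window held 0 and 1. The Mobp window held 6 Sox matches, all on the opposite strand in the first part of the window, and 1 Rbpj match that shares a base with the first of them. Among all 32851 promoter windows of this length, 16.5% held the Sox core and 21.6% the Rbpj core. Entries were found for 8 of the 9 members, all but Mbp. Cnp, Mag, Mal, Ugt8a and Cldn11 had between 0 and 1 match to each core in any of their windows. A match describes letters only, and whether the matches bear on the differences between arrays was not tested.

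Knockout was also compared with each control alone, and these comparisons share the knockout arrays. Against NestinCre control, which has the transgene but no floxed allele, the median difference of the 9 lead probe sets was -0.03, beside -0.0019 over all genes. None of the 25 probe sets passed in limma's test, and 0 had an unadjusted p under 0.05, where 0% and 5.81% of all probe sets did. Opalin differed by -0.51 (SE 0.25), Mag by -0.17 (SE 0.11) and Mog by -0.14 (SE 0.09). Mbp, at -0.0014 (SE 0.06), and Ugt8a, at -0.0014 (SE 0.16), stood level between these groups, though the interval of Ugt8a ran from -0.41 to 0.40.

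Against Flox control, which differs in Cre, all 9 lead probe sets were below 0, as were 62.6% of all genes, with a median of -0.08 beside -0.04 over all genes. Again none of the 25 passed, where 0.00444% of all probe sets did, and the smallest limma adjusted p was 0.238. At an unadjusted p under 0.05, 3 were lower and 0 higher, beside 7.65% and 8.29% of all probe sets. These were Mog, at -0.29 (SE 0.09), and both probe sets of Opalin, at -0.74 (SE 0.25) and -0.23 (SE 0.07). Mal differed by -0.10 (SE 0.10) and Cnp by -0.08 (SE 0.08).

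NestinCre control was set against Flox control to show how far the myelin genes differ between brains that both keep Pofut1. The median difference was -0.06, beside -0.04 over all genes, and 7 of 9 lead probe sets were below 0, as were 64.2% of all genes. No myelin probe set passed in limma's test, where 0% of all probe sets did. Only 1 had an unadjusted p under 0.05, a second Cnp probe set at -0.14 (SE 0.06), beside 10.4% of all probe sets. Opalin differed by -0.24 (SE 0.25), Mog by -0.15 (SE 0.09) and Mal by -0.11 (SE 0.10). The median between the controls was -0.13 without Flox control replicate 2, and -0.03 without Flox control replicate 1 and also without NestinCre control replicate 1.

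**Figure D3:**
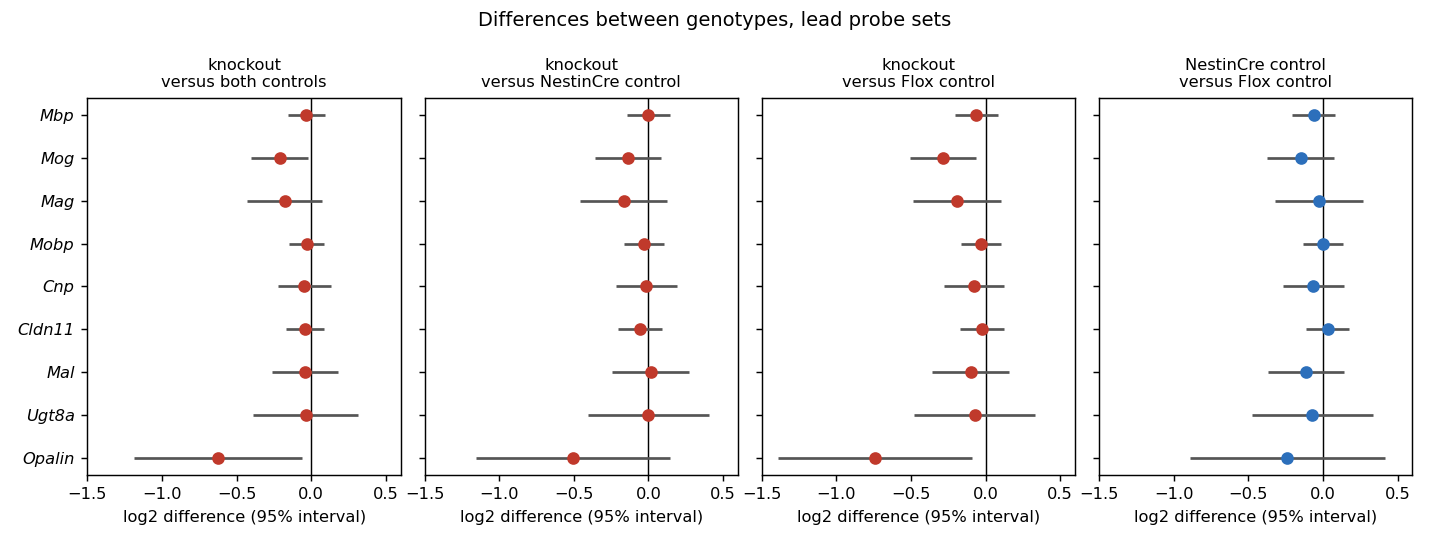
Log2 difference of each lead probe set in the 4 comparisons, with the 95% interval from limma. Apart from Opalin, every point lies between -0.29 and 0.03. The intervals of Mog and Opalin leave out 0 against both controls and against Flox control, and all others include it.

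Precision differed between the members. Against both controls, the SE of the lead probe sets ran from 0.05 to 0.22, beside a median of 0.08 over all genes. The interval left out a change of 1.5-fold in either direction for 8 of the 9 genes, all but Opalin, and of 1.2-fold for 4 of them, namely Mbp, Mobp, Cnp and Cldn11. Both fold sizes are round values chosen after the intervals were seen. For Mog and Mag the intervals hold a loss of 1.2-fold and leave out one of 1.5-fold.

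The 6 arrays also differed in how the members stood together. Flox control replicate 1 was above each gene's own mean for 9 of 9 lead probe sets and was the highest array for 5 of them. Knockout replicate 1 and knockout replicate 2 were each below it for 7 of 9, NestinCre control replicate 1 for 6, Flox control replicate 2 for 3 and NestinCre control replicate 2 for 2. Averaged over the 9 genes, the deviation was -0.07 and -0.11 in knockout, -0.02 and 0.03 in NestinCre control, and 0.12 and 0.05 in Flox control. Without Opalin the knockout arrays were at -0.07 and -0.03 and overlapped NestinCre control replicate 1, at -0.05. The summed intensity of the 9 lead probe sets was 35610 to 35880 in knockout, 36020 to 37480 in NestinCre control and 37440 to 39210 in Flox control.

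The genes whose profile over the 6 arrays was most like the mean profile of the 9 lead probe sets were Snx3, Spred2, Cnep1r1, Degs1 and Fam222b. Likeness was the root mean square difference between centred log2 profiles, which was 0.023 for Snx3 and 0.028 for Fam222b, among 8334 genes that were above the median brightness and varied at least as much as the mean profile. Snx3, a sorting nexin, read 11.46 and 11.45 in knockout, against 11.56 and 11.57 in NestinCre control and 11.72 and 11.60 in Flox control. With this many candidates and 6 arrays, these matches are a description only. Degs1, a desaturase that makes ceramide, was also on the list of lipid genes described next.

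Other genes of myelin and of the oligodendrocyte lineage were read from lists. None of their members passed in limma's test over all probe sets against both controls. Among 21 further structural and adhesion genes of myelin, 11 were below 0 and 10 above, with a median of -0.0004. Over all genes 59.3% were below 0. At an unadjusted p under 0.05, 0 were lower and 2 higher, beside 6.45% and 4.16% of the lead probe sets of all genes. The 2 were the tetraspanin Cd9 (0.33, SE 0.09), which many cell types make, and the axonal and glial adhesion gene Nfasc (0.24, SE 0.08). The raft proteolipid Pllp read 9.63 and 9.77 in knockout, against 9.93 and 9.75 in NestinCre control and 10.26 and 9.95 in Flox control (-0.27, SE 0.11), and Cmtm5 differed by -0.30 (SE 0.12).

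Genes that make or break down the lipids of myelin had a median of -0.10 against both controls, with 13 of 16 below 0, beside 59.3% of all genes. Of these, 1 was lower at an unadjusted p under 0.05, the acetyl-CoA synthetase Acss2 (-0.23, SE 0.05), and 1 was higher, the serine palmitoyltransferase subunit Sptlc2 (0.24, SE 0.08), beside 6.45% lower and 4.16% higher over all genes. The ceramide synthase Cers2, which makes very long chain ceramides, differed by -0.11 (SE 0.04). Galc, which breaks down the galactosylceramide that Ugt8a makes, differed by -0.35 (SE 0.17), and Fa2h, which hydroxylates its fatty acid, by -0.19 (SE 0.09). Against NestinCre control alone, Cers2 differed by -0.03 (SE 0.05), Fa2h by -0.05 (SE 0.11), Acss2 by -0.15 (SE 0.06) and Galc by -0.33 (SE 0.20). NestinCre control itself differed from Flox control by -0.16 for Cers2, -0.29 for Fa2h, -0.16 for Acss2 and -0.03 for Galc. Cholesterol, the main sterol of the sheath, is made by enzymes whose genes had a median of -0.12, with 14 of 17 below 0, beside 59.3% of all genes. At an unadjusted p under 0.05, 5 were lower and 0 higher, read against the same shares of 6.45% and 4.16%. First among these were Cyp51 (-0.31, SE 0.06) and Idi1 (-0.28, SE 0.08). Against NestinCre control the median of the cholesterol genes was -0.03. NestinCre control lay below Flox control for 17 of 17 of them, with a median of -0.23, where 64.2% of all genes were below 0.

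Sox10, which turns on myelin genes, read 10.73 and 10.59 in knockout, against 10.76 and 10.77 in NestinCre control and 11.12 and 10.39 in Flox control. The Flox control arrays were the highest and the lowest of the 6, and the difference from both controls was -0.10 (SE 0.21). Myrf, the factor that completes the myelin program, read 8.60 and 8.95 in knockout, against 8.71 and 8.63 in NestinCre control and 9.03 and 8.56 in Flox control (0.04, SE 0.17). Over 13 transcription factors of the lineage the median was -0.05, with 8 below 0, beside 59.3% of all genes. Olig1 (0.27, SE 0.08), the only one of them at an unadjusted p under 0.05, and Olig2 (0.31, SE 0.14), both made from precursors onward, were higher on both knockout arrays than on all 4 controls. Over all genes, 7.23% had lead probe sets placed in that way.

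Late and other mature oligodendrocyte genes had a median of -0.07 against both controls, with 17 of 22 below 0, beside 59.3% of all genes. Of these, 7 were lower at an unadjusted p under 0.05 and 0 higher, beside 6.45% and 4.16% of all genes. The sphingosine 1-phosphate receptor of oligodendrocytes, S1pr5, read 8.85 and 8.91 in knockout, against 9.27 and 9.24 in NestinCre control and 9.35 and 9.24 in Flox control. Both knockout arrays were below all controls, as were 10.9% of the lead probe sets of all genes, with a difference of -0.40 (SE 0.06, limma adjusted p = 0.182). The alarmin Il33, made by oligodendrocytes and astrocytes, read 10.39 and 10.45 in knockout, against 10.88 and 10.72 in NestinCre control and 10.77 and 10.83 in Flox control (-0.37, SE 0.07, limma adjusted p = 0.224). Ppp1r14a, an inhibitor of myosin phosphatase, differed by -0.52 (SE 0.13) and Ninj2, an adhesion gene, by -0.32 (SE 0.10). Against NestinCre control alone, S1pr5 differed by -0.38, Il33 by -0.37, Ppp1r14a by -0.32 and Ninj2 by -0.19. NestinCre control differed from Flox control by -0.04, -0.0038, -0.41 and -0.26 for these genes. At an unadjusted p under 0.05, 4 of the list were lower and 1 higher against NestinCre control, beside 5.81% of all probe sets in either direction. The count of 7 became 3 without knockout replicate 1 and 4 without knockout replicate 2.

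Genes of newly formed oligodendrocytes had a median of -0.01, with 8 of 15 below 0, beside 59.3% of all genes. At an unadjusted p under 0.05, 0 were lower and 4 higher, beside 6.45% and 4.16% of all genes. Enpp6, a choline phosphodiesterase that marks oligodendrocytes as they begin to make myelin, read 9.24 and 8.94 in knockout, against 8.15 and 8.63 in NestinCre control and 8.37 and 8.68 in Flox control. Both knockout arrays were above all controls (0.63, SE 0.18, limma adjusted p = 0.344), as were 7.23% of the lead probe sets of all genes. The signalling ligand Bmp4 read 7.64 and 7.75 in knockout, against 6.93 and 7.02 in NestinCre control and 7.29 and 6.73 in Flox control (0.70, SE 0.17, limma adjusted p = 0.284). Bmp4 was dim, with all control arrays below the median of all probe sets (7.35) and only the knockout arrays above it. Fyn, a kinase of early myelination, differed by 0.20 (SE 0.07) and Kndc1 by 0.20 (SE 0.07). The count of 4 became 2 without knockout replicate 1, without knockout replicate 2, without NestinCre control replicate 1 and without Flox control replicate 1. Among 11 precursor genes 8 were above 0, with a median of 0.07, where 59.3% of all genes were below 0. At an unadjusted p under 0.05, 0 were lower and 2 higher, beside the same 6.45% and 4.16%. These were the proteoglycan Vcan (0.72, SE 0.11), which other brain cells also make, and Gpr17 (0.61, SE 0.22), a receptor of cells between the precursor and the myelinating stage. The precursor genes differed by control, with 10 of 11 above 0 against NestinCre control (median 0.14) but 4 of 11 against Flox control (median -0.0035). Over all genes, 50.9% and 62.6% were below 0 in these comparisons. NestinCre control lay below Flox control for 10 of 11 precursor genes (median -0.15), beside 64.2% of all genes.

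**Figure D4:**
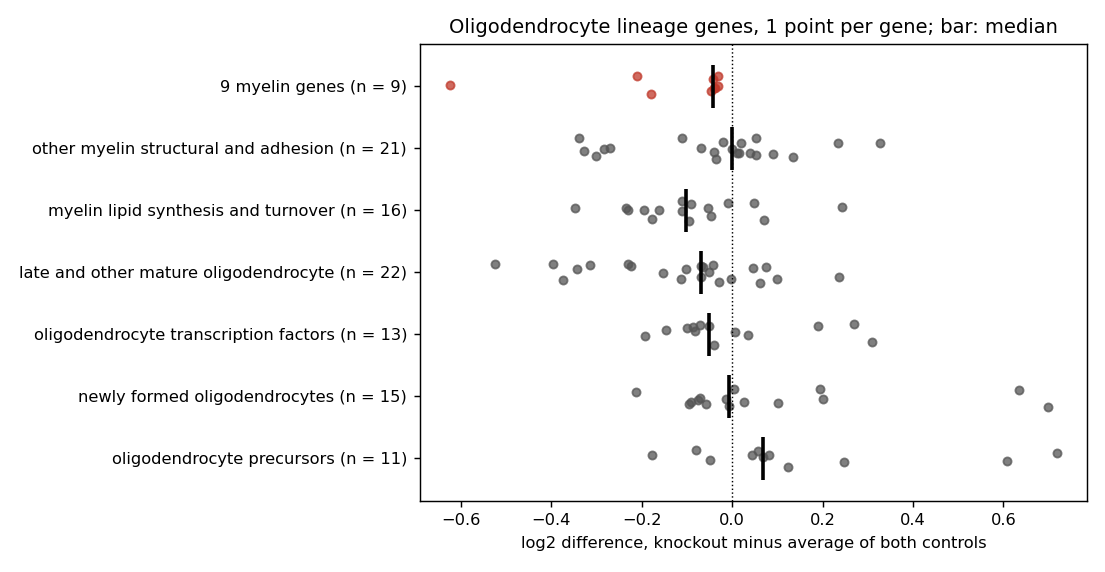
Log2 difference of the lead probe set of each gene of the 9 members and 6 lists of myelin and oligodendrocyte lineage genes, knockout minus the average of both controls, with 1 point per gene and a bar at the median of each list. Most myelin genes sit just below 0, with Opalin apart at -0.62, while among the genes drawn Vcan, Bmp4, Enpp6 and Gpr17 stand apart above 0 at 0.72, 0.70, 0.63 and 0.61.

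Genes of other cells and regions were read beside the members on the same arrays. Against both controls 59.3% of all genes were below 0, and the counts for that comparison stand beside this share. Microglial genes were above 0 for 13 of 13 against both controls, 12 of 13 against NestinCre control and 11 of 13 against Flox control. At an unadjusted p under 0.05 against both controls, 0 were lower and 6 higher, beside 6.45% and 4.16% of all genes. The summed intensity of the microglial genes was 21570 to 21690 in knockout, 18320 to 18680 in NestinCre control and 18000 to 19810 in Flox control. Astrocyte genes were below 0 for 11 of 14 (median -0.18), with sums of 46190 to 46710 in knockout, 47700 to 47760 in NestinCre control and 47640 to 47790 in Flox control, while the astrocyte filament gene Gfap stood at 0.86 (SE 0.07). Axonal and pan-neuronal genes had a median of -0.01, with 8 of 14 below 0, and their sums overlapped in all groups. Genes of brainstem neurons, from a region rich in myelin, had a median of -0.05, with 9 of 16 below 0. They differed by control, with a median of 0.04 against NestinCre control (6 of 16 below 0) and -0.14 against Flox control (11 of 16). Over all genes, 50.9% and 62.6% were below 0 in these comparisons. The sums of the brainstem genes were 6750 to 7250 in knockout, 6955 to 6981 in NestinCre control and 7538 to 7592 in Flox control. Pituitary genes summed to 763 to 845 in knockout, 675 to 761 in NestinCre control and 1135 to 2357 in Flox control, and Schwann cell genes had a median of -0.03, with 5 of 9 below 0. The part of these differences in the myelin values was not tested.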

How the data were processed

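Total RNA of 6 brain samples was labelled with biotin and hybridised to one-colour oligonucleotide arrays, 1 sample per array. The authors deposited 1 intensity per probe set and array, not in logs. The submitters' processing notes name GCOS and RMA, and their roles, versions and any filter are not given. Where RMA is used, it gives arrays a common distribution, which removes shifts shared by most genes and compresses dim probe sets.

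Log2 was taken of each deposited intensity, 64 control probe sets were left out, and 45037 went into limma 3.58.1 (R 4.3.3). All 6 arrays entered 1 fit with a mean per genotype (residual degrees of freedom 3, with the prior 4.94), with eBayes without trend and Benjamini-Hochberg adjustment over all probe sets. Intervals are 95% and use the moderated spread. The labels do not say whether replicates come from separate animals. By Xist and Eif2s3y the knockout replicates differed in sex, as did the NestinCre control replicates, so neither pair came from a single animal. Both Flox control samples were female, which leaves that pair unsettled. The p-values cover only the variation among these samples, some of it perhaps technical, and the number of arrays limits the precision. The fit was tested on simulated data.

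The members, the gene lists and the naming rule were chosen with earlier results of these data known. All member probe sets are described. Genes named from a list were among those with its smallest p against both controls or 1 control, and Sox10 and Myrf were always named. Not every such gene was named, for example Plaat3 of the lipid list (-0.23, SE 0.09). Some lists of other cells and regions had no gene named. Of 205 listed genes, 189 had a probe set with 1 symbol, and the other 16, among them one gene the rule would always have named, were not analysed here. Promoter sequences come from RefSeq, GRCm38.p6.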

Additional observations from a re-analysis of the deposited data

How the results depend on the processing

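No myelin probe set passed the threshold in any of the 4 comparisons under the 63 alternative fits of these counts by limma, although the calls over all 45037 probe sets in knockout against both controls ranged from 0 to 202, with 135 when an intensity trend was used and 7 without. The median of the 9 genes against both controls was -0.04. It ran from -0.06 to -0.03 under the other settings and from -0.08 to -0.03 with 1 array left out. The number of genes below 0 was 9 in each of these settings with all arrays, 8 without knockout replicate 1, 7 without knockout replicate 2 and 8 without NestinCre control replicate 2. Of 567 alternative values of single genes, 550 lay within 1 SD between replicates of the value reported, 17 moved by more, 14 of these with 1 array left out, and 25 changed sign, none of them past the threshold before or after. The cause was not tested. For same-numbered arrays of different genotypes, the deviations from the group means correlated at -0.31 (knockout and NestinCre control) and -0.24 (knockout and Flox control). Between NestinCre and Flox control the correlation was 0.19. The replicate number need not follow the order of processing, so these values cannot show which arrays were processed together. With the replicate number as a block the median stayed at -0.04, Opalin had a limma adjusted p of 0.400, and 0 myelin probe sets passed. Run on the listed genes after their counts had been seen, the same alternatives gave no call in the myelin or oligodendrocyte lists other than Vcan (adjusted p = 0.0477 by limma with a robust trend). The intervals of Opalin and Ugt8a are the widest of the 9 lead probe sets, and with 2 arrays a group every interval is limited in precision.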
